A study of Homo sapiens with 7 samples.

Results

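HSPA6 and 9 other genes of the heat shock system were examined on 7 expression arrays of Panc1 cells, a long-established line from a human pancreatic carcinoma. The members were the probe sets annotated to exactly 1 of the 10 symbols HSPA6, HSPA8, HSPA4, HSPH1, DNAJB1, HSPB1, HSP90AA1, BAG3, HSPD1 and HSF1. This gave 24 of 54613 probe sets, which read 9 of the 10 genes. HSPA8, the constitutive HSP70, had no such probe set, because each of the 4 probe sets that list it also lists small nucleolar RNA genes, and it is given no value here. HSPA6 was chosen by its measured difference between clone 5 and clone 1, where it was among the highest genes, and the other members as its relatives and partners, so values in that comparison are a description with no test. All cells carried a pcDNA3.1/V5-His vector, with S100P in one arm and without it in the other, and each line was grown from a single cell. The S100P-labelled arm held 4 arrays, 2 each of clone 1 and clone 5, and the vector arm held 3 arrays, 2 of clone V3 and 1 of clone V1. S100P is a small calcium-binding protein, and the study looked for genes that it regulates. The 2 arrays of a clone are called a and b after their labels. Cells had been grown in serum-containing medium and taken before they were fully confluent, and the labels name no heat treatment.

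Heat shock proteins are chaperones that keep other proteins folded. HSP70 proteins bind unfolded stretches and release them in a cycle that J-domain proteins start and nucleotide exchange factors end, while HSP90, the small heat shock proteins and the chaperonins act on other clients or in other compartments. HSF1 is held inactive in unstressed cells and, when unfolded proteins gather, forms trimers that bind heat shock elements, inverted repeats of GAA and TTC, before the genes. HSPA6 is an HSP70 that most cells make only under strong stress, whereas HSPA4, HSPD1 and HSP90AA1 are also made without stress.

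The sequences before the genes' starts are shown because heat shock elements, through which HSF1 acts, can lie there. They were taken from RefSeq (GRCh38.p14), which gave 13 start sites for 9 of the 10 genes, HSPA8 included. HSF1 itself was not matched. In the 250 bases before each start, a 3-unit element (GAANNTTCNNGAA, or TTCNNGAANNTTC read on the other strand) and a 2-unit element (GAANNTTC or TTCNNGAA, each its own reverse complement) were searched. A 3-unit element contains 2-unit ones. HSPA6 lies on chromosome 1 at 161524540 to 161526894, plus strand, and the 250 bases before its start (chr1:161524290-161524539, plus strand) hold 1 3-unit element, in capitals, whose last base lies 62 bases before the start.
HSPA6: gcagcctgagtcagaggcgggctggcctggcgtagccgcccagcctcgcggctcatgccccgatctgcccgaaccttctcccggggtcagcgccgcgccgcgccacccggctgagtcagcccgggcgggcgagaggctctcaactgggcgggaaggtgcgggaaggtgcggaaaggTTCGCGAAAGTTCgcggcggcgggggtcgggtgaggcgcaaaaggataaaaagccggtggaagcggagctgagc
The same element type stands before HSP90AA1 (chr14:102087100-102087152, minus strand) and in 2 overlapping copies before HSPD1 (chr2:197500048-197500090, minus strand), each shown with the bases around it and with the element in capitals.
HSP90AA1: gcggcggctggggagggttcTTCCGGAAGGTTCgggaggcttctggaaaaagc
HSPD1: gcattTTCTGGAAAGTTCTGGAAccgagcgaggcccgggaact
Before DNAJB1 (chr19:14518417-14518494, minus strand) and HSPB1 (chr7:76302471-76302518, plus strand) the window held only 2-unit elements, in capitals.
DNAJB1: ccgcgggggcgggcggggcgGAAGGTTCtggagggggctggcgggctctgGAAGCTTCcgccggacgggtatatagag
HSPB1: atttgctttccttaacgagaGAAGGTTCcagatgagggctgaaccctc
Over all 35116 RefSeq windows of this length, 0.441% held a 3-unit element and 11.6% a 2-unit one, windows with a 3-unit element included. These are shares of windows, whereas the counts that follow are of genes, some with several starts, so they are not like for like. Among the 9 genes, 4 had a 3-unit element at a listed start (HSPA6, HSPA8, HSP90AA1 and HSPD1), 2 had only 2-unit ones, and HSPA4, HSPH1 and BAG3 had neither in this window. DNAJB1, HSP90AA1 and HSPD1 have further listed starts whose windows held no element. These matches describe letters only and say nothing of binding in these cells.

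HSPA6 was high in clone 5 and in no other clone. Its brighter probe set, 213418_at, read 7.14 and 7.18 on the clone 5 arrays, on the log2 scale of the deposited values. It read 5.28 and 5.02 in clone 1, 5.19 and 5.21 in V3, and 4.71 in V1. The order of the clone means was therefore clone 5 (7.16), V3 (5.20), clone 1 (5.15) and V1, with both V3 arrays inside the range of the clone 1 arrays. The other probe set, 117_at, read 6.36 and 6.31 in clone 5, 5.06 and 5.16 in clone 1, 5.25 and 5.21 in V3, and 4.87 in V1. At both probe sets the clone 5 arrays stood above the other 5 arrays with no overlap, and V1 was the lowest array. The log2 difference of clone 5 minus clone 1 was 2.01 (4.02-fold) at the brighter probe set and 1.22 (2.33-fold) at the other. HSPA6 was the fourth highest of 19775 genes at their brightest probe set, just after EPHB6 (2.18) and ABCG2 (2.17) and ahead of COL5A2 (1.91) and DOCK4 (1.89). Over all probe sets 0.52% differed at least 2-fold between these clones in either direction, and 0.108% were at least 2-fold higher in clone 5. HSPA6 has a close relative on the same chromosome, HSPA7, that RefSeq lists as a transcribed pseudogene, and whether these probe sets also read it was not tested. Outside clone 5 both probe sets read 4.71 to 5.28, not far above the array medians of 4.51 to 4.58. At such low signal RMA values can understate a difference, which limits what the folds say.

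**Figure D1:**
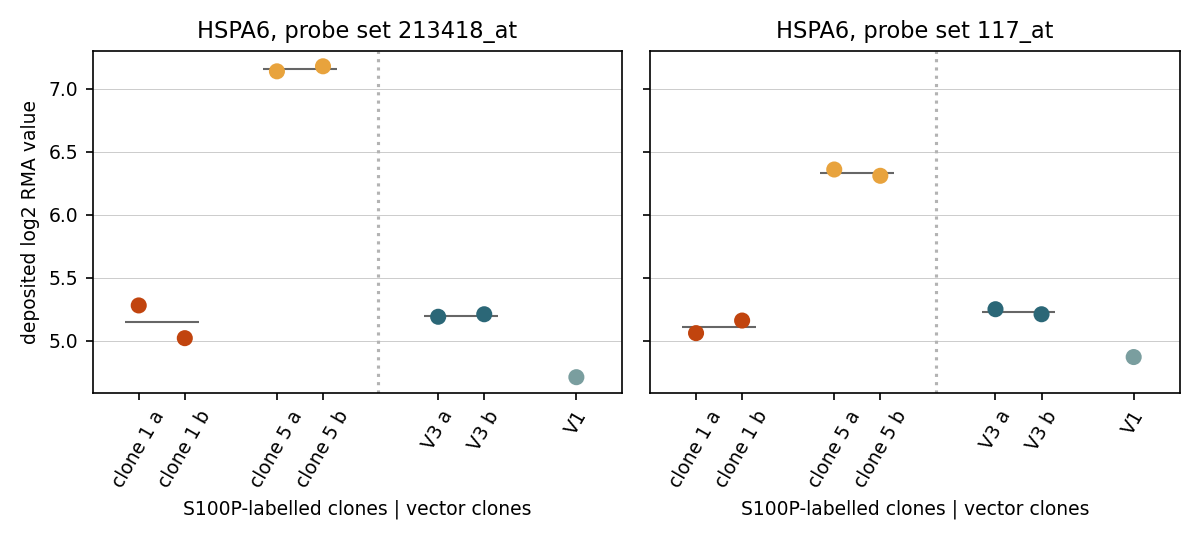
Deposited log2 values of HSPA6 at its 2 probe sets (one panel each) on the 7 arrays, in order of clone; points are arrays and short lines are means of the 2 arrays of a clone. The clone 5 arrays sit at 7.14 and 7.18 on the left and 6.36 and 6.31 on the right, above every other array.

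Between the arms HSPA6 did not pass the test. The S100P-labelled arm is made of clone 1 and clone 5, whose difference chose the gene. Its mean and spread are therefore not independent of that choice. The S100P-labelled arrays read 5.02 to 7.18 and the vector arrays 4.71 to 5.21, so the arms overlapped through clone 1. The S100P-labelled mean was 6.15 ± 1.16 (SD, n = 4) and the vector mean 5.04 ± 0.28 (SD, n = 3). The fitted log2 difference was 1.15 (SE 0.54, 95% interval -0.08 to 2.37), with a limma adjusted p = 0.46 over all probe sets. It was 0.10 without clone 5 (adjusted p = 0.814) and 2.07 without clone 1 (adjusted p = 0.0121), so its size turned on the clone, and the latter value rests on the clone 5 arrays by which the gene was chosen. At the other probe set the difference was 0.63 (SE 0.33, adjusted p = 0.529). Over all probe sets 1.12% passed between the arms (0.776% higher and 0.342% lower), and 0 of the 24 member probe sets did. An unadjusted limma p under 0.05 was seen for 2 of the 24 (HSPB1 and HSPA4 208814_at) and for 6468 of all 54613 probe sets. The share among the members was thus the smaller.

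Between the vector clones, both HSPA6 probe sets read lowest in V1. The differences below come from the vector arrays alone, which did not choose the gene. Their SE, interval and adjusted p also use the spread of the S100P-labelled arrays, by which HSPA6 was chosen, and so are not independent of that choice. V1 minus V3 was -0.49 (SE 0.13, 95% interval -0.81 to -0.18, limma adjusted p = 0.0862) at the brighter probe set and -0.36 (SE 0.11, adjusted p = 0.116) at the other, and neither passed. Averaged over both probe sets the difference was -0.43 and passed, with an adjusted p = 0.0285 over genes. V1 is 1 array, assumed to vary like the others, and what belongs to the clone and what to that array cannot be told apart.

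The partners that set the HSP70 cycle differed far less between clones than HSPA6. Since HSPA6 was chosen for its difference between clones, this contrast follows from the choice and nothing is read from it. DNAJB1, the J-domain protein that brings clients to HSP70, read 10.26 and 10.36 in clone 1, 10.67 and 10.60 in clone 5, 10.31 and 10.52 in V3, and 10.45 in V1. Clone 5 was highest here too, but by 0.33 over clone 1 where HSPA6 differed by 2.01. The arms differed by 0.05 (SE 0.13, 95% interval -0.24 to 0.34, adjusted p = 0.947). Its other probe set, 200664_s_at, was highest in V1 with 9.24 and read 8.60 to 8.93 on the other arrays, and neither probe set passed between V1 and V3 (adjusted p = 0.955 and 0.0981).

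BAG3, a nucleotide exchange factor that also ties HSP70 to small heat shock proteins, read 10.18 and 10.16 in clone 1, 10.49 and 10.65 in clone 5, 10.42 and 10.54 in V3, and 10.55 in V1. Clone 1 was the low clone, below the other 5 arrays, and clone 5 lay among the vector arrays or just above them. The arms differed by -0.14 (SE 0.14, adjusted p = 0.807). Without clone 1 the difference was 0.08. The BAG3 value in clone 5 exceeded that in clone 1 by 0.40, the next difference after HSPA6 among the 9 genes at their brightest probe sets.

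HSPH1, the HSP110 nucleotide exchange factor induced by heat, was, like BAG3, lowest in clone 1. Its brightest probe set read 10.21 and 10.17 in clone 1, 10.67 and 10.42 in clone 5, 10.47 and 10.69 in V3, and 10.49 in V1. Again clone 1 was below every other array, and clone 5 overlapped V3. At 208744_x_at the clone 1 arrays (9.27 and 9.28) were also lowest, with 9.65 and 9.69 in clone 5 and 9.52 to 9.84 on the vector arrays. At 235573_at the arrays overlapped, from 6.08 to 6.48. The arms differed by -0.18 (SE 0.14), -0.24 (SE 0.14) and -0.10 (SE 0.11) at the 3 probe sets, with adjusted p between 0.616 and 0.837.

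HSPA4, the constitutive HSP110 relative, gave answers that depended on the probe set. At the brightest, 208815_x_at, it read 10.77 to 11.10 on the S100P-labelled arrays and 10.78 to 10.90 on the vector arrays. At 208814_at it read 7.86, 8.14, 7.98 and 8.38 on the S100P-labelled arrays and 7.81, 7.78 and 6.95 on the vector arrays, the last in V1. There every S100P-labelled array was above every vector array, with a difference of 0.62 (SE 0.24, adjusted p = 0.355), which was 0.29 without V1. At 211016_x_at V1 was instead the highest array, with 9.22 against 8.51 to 8.87 elsewhere. These 2 probe sets were the members called between V1 and V3, in opposite directions, 208814_at lower in V1 by -0.85 (SE 0.19, limma adjusted p = 0.0484) and 211016_x_at higher by 0.60 (SE 0.13, adjusted p = 0.0476). Over all probe sets 5.85% were called in that comparison, 2.57% higher and 3.28% lower in V1. Both calls were lost when any array of clone 1, clone 5 or V3 was left out (adjusted p = 0.0755 to 0.222 and 0.0528 to 0.18), while the differences stayed at -0.83 to -0.86 and 0.59 to 0.61. They were also lost when the values were quantile normalized again (0.0508 and 0.0645). Both passed with a mean log2 value of at least 6 (adjusted p = 0.00217 and 0.00552) and with a trended robust prior (0.028 and 0.0277). The remaining HSPA4 probe set, 211015_s_at, read 9.86 to 10.10 on all arrays. Probe sets whose names end in _x_at or _s_at can read more than 1 transcript, which limits what they say of HSPA4 alone.

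**Figure D2:**
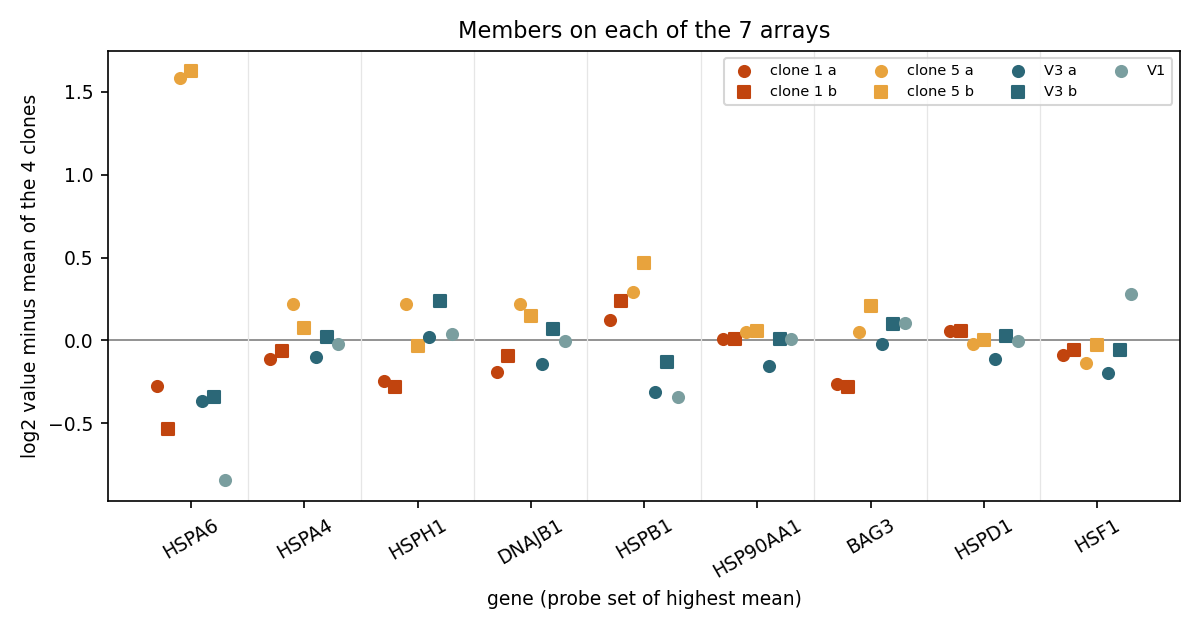
Each of the 9 measured genes at its probe set of highest mean, as the log2 value on each array minus the mean of the 4 clones; colours mark clones, circles array a or V1 and squares array b. HSPA6 spans from -0.85 in V1 to 1.60 for the clone 5 mean, while every other gene's clone means stay between -0.34 and 0.38.

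HSPB1, the small heat shock protein also called HSP27, was the member whose arrays separated by arm with the smallest spread. It read 11.95 and 12.07 in clone 1, 12.12 and 12.30 in clone 5, 11.52 and 11.70 in V3, and 11.49 in V1. All 4 S100P-labelled arrays were above all 3 vector arrays. The means were 12.11 ± 0.14 (SD, n = 4 arrays) and 11.57 ± 0.12 (SD, n = 3 arrays), each over 2 clones. The fitted difference was 0.55 (1.46-fold, SE 0.12, 95% interval 0.28 to 0.82). The limma adjusted p was 0.0746, so HSPB1 did not pass. The difference lay between 0.44 and 0.63 in 17 alternatives and passed in 2 of them, without the clone block (adjusted p = 0.0386) and without clone 1 (0.041), and with clone means averaged first the adjusted p was 0.429. Over all probe sets, 6.74% had every S100P-labelled array above every vector array and 4.63% every one below. Of the 24 member probe sets, 2 were above (HSPB1 and HSPA4 208814_at) and 1 below (HSF1 213756_s_at). A share of this size among 24 is near the background.

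HSP90AA1, the heat-inducible HSP90, was level between the arms. Its brightest probe set read 12.56 and 12.56 in clone 1, 12.60 and 12.61 in clone 5, 12.40 and 12.56 in V3, and 12.56 in V1. Its 4 probe sets differed between the arms by -0.04 to 0.07, with SE of 0.08 to 0.12. The 95% intervals ran from -0.30 to 0.27 across the 4, so a difference beyond 0.30 on the log2 scale lay outside all of them.

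HSPD1, the mitochondrial chaperonin HSP60, was level at its bright probe sets. It read 13.23 and 13.23 in clone 1, 13.15 and 13.18 in clone 5, 13.06 and 13.20 in V3, and 13.17 in V1. The arms differed by 0.05 (SE 0.08, 95% interval -0.14 to 0.24, adjusted p = 0.889). At 200806_s_at, V1 read 12.68 and the other arrays 12.38 to 12.44. Its 3 dim probe sets, with values between 3.87 and 5.46, did not pass either. Among them 241716_at differed by 0.63 (SE 0.28, adjusted p = 0.428), with 4.60 and 4.61 in clone 1, 5.45 and 4.96 in clone 5, 3.87 and 4.08 in V3, and 4.74 in V1.

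HSF1, the transcription factor that binds heat shock elements, did not follow HSPA6. It read 8.20 and 8.23 in clone 1, 8.15 and 8.26 in clone 5, 8.09 and 8.23 in V3, and 8.57 in V1. Clones 1 and 5 were thus alike within the gap between their arrays, and V1 stood highest where HSPA6 was lowest. V1 minus V3 was 0.41 (SE 0.12, adjusted p = 0.101). It passed in 1 of 10 alternatives, over the probe sets with a mean log2 value of at least 6 (0.41, adjusted p = 0.0325), and the range over all 10 was 0.0325 to 0.233. The arms differed by -0.11 (SE 0.13, adjusted p = 0.843). At the dimmer 213756_s_at the arrays of clone 5 disagreed, with 4.61 on a and 5.82 on b. There all S100P-labelled arrays were below all vector arrays (5.84, 6.06 and 6.72), with a difference of -0.82 (SE 0.37, adjusted p = 0.451). HSF1 is controlled largely through its protein, which arrays do not measure.

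**Figure D3:**
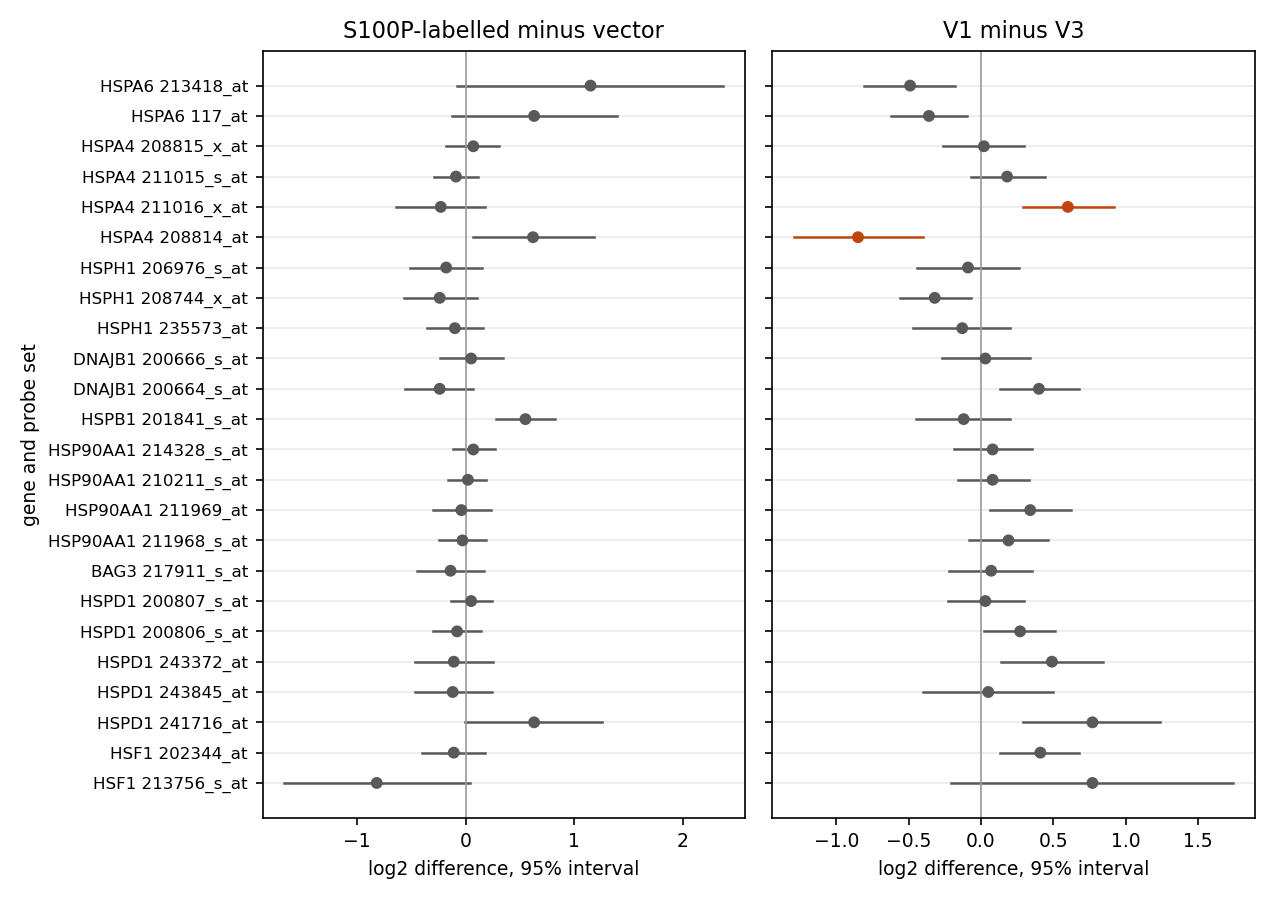
Fitted log2 differences of the 24 member probe sets with 95% intervals, for S100P-labelled minus vector (left) and V1 minus V3 (right); red marks a limma adjusted p under 0.05. No probe set passed on the left, and on the right 2 HSPA4 probe sets passed in opposite directions, at 0.60 and -0.85.

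Set beside each other as counts, the members moved little. At the brightest probe sets 7 of 9 were higher in clone 5 than in clone 1, with a median log2 difference of 0.24 against 0.02 over 19775 genes, and apart from HSPA6 their differences ran from -0.07 to 0.40. This is the comparison that chose HSPA6, and nothing is read from it. Between the arms 6 of 9 were higher, with a median of 0.05 against 0 over all genes, and none passed. Between V1 and V3 the median was 0.03 against 0.02, and none of the 9 passed.

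Genes of the wider chaperone network were read from 8 lists with 86 symbols, of which 79 had a probe set of their own. Over all genes at their brightest probe set 1.55% passed between the arms and 7.72% between V1 and V3. In the network 1 of 79 passed between the arms, higher, and 1 of 79 between V1 and V3, lower. The median log2 difference was -0.02 between the arms and 0.02 between V1 and V3.

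The gene that rose between the arms was HSPB8, a small heat shock protein that works with BAG3. It read 7.75 and 7.55 in clone 1, 7.26 and 7.16 in clone 5, 6.53 and 6.67 in V3, and 6.48 in V1. All S100P-labelled arrays were above all vector arrays, and clone 1, not clone 5, was the highest. The difference was 0.88 (1.84-fold, SE 0.15, limma adjusted p = 0.038). The call was lost with any 1 of the 7 arrays left out (differences 0.76 to 0.93, adjusted p = 0.0509 to 0.145), without clone V3 (adjusted p = 0.12), with the array letter as a block and V1 left out (0.107) and with clone means averaged first (0.421). It passed in the other 7 of 17 alternatives, among them without clone 5 (1.09, adjusted p = 0.0147), without clone 1 (0.64, 0.0303) and averaged with its dim other probe set (0.45, 0.0496). None of the other 7 small heat shock proteins measured passed.

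In the HSP70 and HSP110 family, 10 of 12 symbols were measured, and the stress-inducible HSPA1A and HSPA1B were not, since their probe sets list both. HSPA13, a microsomal HSP70 relative, fell in V1 against V3, by -0.77 (SE 0.11, limma adjusted p = 0.0115). It read 8.46 in V1, 9.21 and 9.25 in V3, 9.25 and 9.22 in clone 5, and 9.61 and 9.49 in clone 1, so V1 was the array that stood apart. This call was lost when any array of clone 1, clone 5 or V3 was left out (adjusted p = 0.0509 to 0.0876), with the difference at -0.75 to -0.79, and passed in the other 4 of 10 alternatives. HSPA2 was the network gene at least 2-fold higher in clone 5 than in clone 1, named after its values were seen, with 6.59 and 7.27 in clone 5 and 5.85 and 5.83 in clone 1. Its V3 arrays, at 6.40 and 6.67, lay next to clone 5, unlike those of HSPA6.

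In the remaining 6 lists no gene passed in either comparison, and the 2 genes of each with the largest difference in either comparison are given as values. Among J-domain proteins (17 measured), the mitochondrial DNAJA3 differed between the arms by 0.56 (adjusted p = 0.0592), with 10.47 to 10.75 on the S100P-labelled and 9.91 to 10.14 on the vector arrays. DNAJA4 was lowest in clone 1 (6.07 and 5.84) and read 6.85 to 7.15 elsewhere. Among co-chaperones (23 measured), BAG2 differed by -0.50 between the arms (adjusted p = 0.0663), with 9.15 to 9.32 against 9.59 to 9.83. HSPBP1, a nucleotide exchange factor, was highest in V1 (9.49, adjusted p = 0.0532 against V3). Among chaperonins (8 measured), CCT5 and CCT6A were highest in V1, at 12.36 and 11.82, with adjusted p = 0.0788 and 0.168 against V3. Of the 3 HSP90 relatives, HSP90AB1 read 13.01 in V1 and 12.50 to 12.72 elsewhere, and the mitochondrial TRAP1 was lowest in V3 (9.16 and 9.25). Of the 4 genes of heat shock factors and their binding proteins, HSBP1 differed between the arms by 0.23 (adjusted p = 0.597) and HSF2BP between V1 and V3 by 0.21 (adjusted p = 0.522). Of 6 other HSF1 targets, ZFAND2A, a proteasome-associated gene induced by heat and arsenite, differed between the arms by 1.01 (adjusted p = 0.0547), with 9.37 and 9.34 in clone 1, 8.68 and 8.79 in clone 5, 8.20 and 8.13 in V3, and 7.84 in V1. HMOX1, the inducible heme oxygenase, differed by -0.56 between V1 and V3 (adjusted p = 0.0525).

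Likeness to HSPA6 over the arrays was described for 1977 genes whose values ranged over at least 1 log2 unit. This bound left out the 8 other measured members, whose brightest probe sets ranged over 0.17 to 0.82, and genes could pass it through clone 5 alone. The 6 of highest Pearson correlation with HSPA6 over the 7 arrays were AGAP4 (r = 0.972), PLAGL1 (0.943), NFKBIZ (0.942), ARSK (0.941), COL5A2 (0.937) and PAPSS2 (0.931). All 6 were highest on both clone 5 arrays, and the correlations rest on that clone and on arrays the genes share. PLAGL1, a zinc finger transcription factor, read 6.67 and 6.81 in clone 5 and 4.23 to 5.10 elsewhere. COL5A2, a fibrillar collagen gene, read 7.99 and 8.15 in clone 5 and 6.05 to 6.97 elsewhere. AGAP4 was dim, with 5.00 and 4.73 in clone 5 and 3.59 to 3.87 elsewhere, and it belongs to a family of near-identical copies, so it is uncertain. Among the members at their brightest probe sets, the correlation with HSPA6 was 0.81 for HSPA4, 0.77 for DNAJB1 and 0.75 for HSPB1. It was 0.52 for HSP90AA1, 0.46 for BAG3, 0.32 for HSPH1, -0.10 for HSPD1 and -0.33 for HSF1, and 0.99 between both HSPA6 probe sets. These values too rest on the clone 5 arrays by which HSPA6 was chosen. HSPA4 at 211015_s_at and 211016_x_at and DNAJB1 at 200664_s_at were highest in V1, where HSPA6 was lowest. HSPA4 at 208814_at was lowest in V1.

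**Figure D4:**
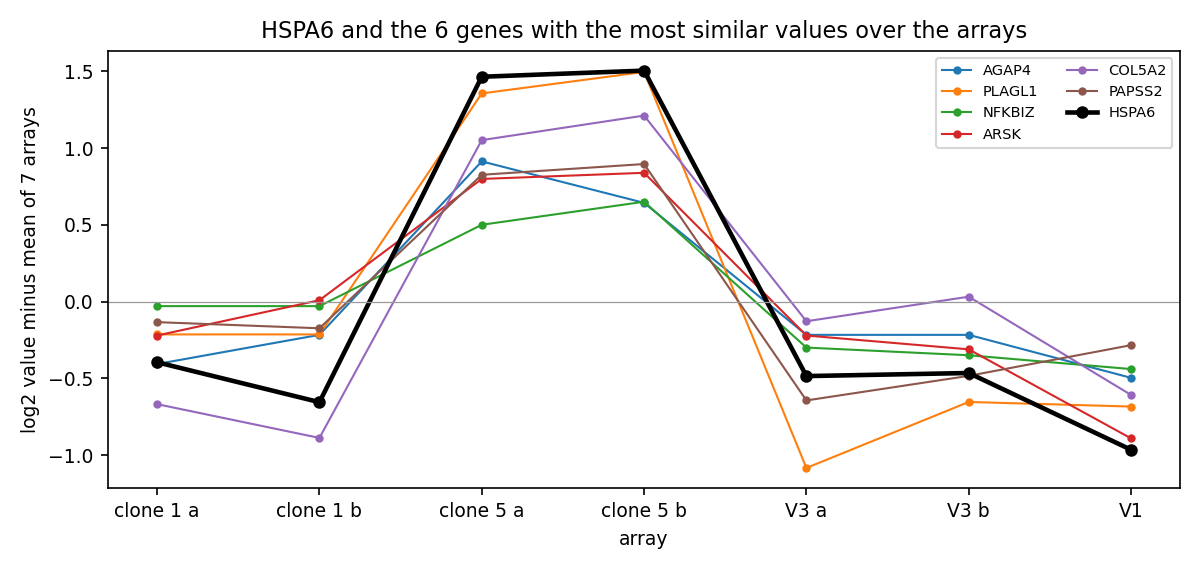
Log2 values on each array minus the mean of the 7 arrays for HSPA6 (black) and the 6 genes most like it; lines only join the arrays of a gene. Each gene is highest on the clone 5 arrays, with HSPA6 at 7.14 and 7.18 before the mean is taken off.

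Across the series, the array medians lay between 4.51 and 4.58, arrays of a clone correlated at 0.996 to 0.998, and V1 correlated with the others at 0.982 to 0.990. S100P read 5.36 to 5.95 on the S100P-labelled arrays and 4.65 to 6.01 on the vector arrays, a difference of 0.27 (SE 0.32, adjusted p = 0.846). Whether its probe set reads the introduced S100P is unknown here, so every direction is that of the arms as labelled. Of 6 epithelial markers 5 read at least 6 on every array, with a highest value of 13.68. Of 3 mesenchymal markers 2 (VIM and CDH2) did so as well, with a highest value of 13.63, while FN1 was below 6 on every array. The acinar, endocrine and leukocyte markers measured were below 6 on every array, with a highest value of 4.74. COL1A1 among 4 fibroblast markers read at least 6 on every array, with a highest value of 7.42. PECAM1 among 3 endothelial markers reached 6, with a highest value of 6.08, but not on every array. As a measure of RNA quality, the ACTB control probe sets gave a 3' minus 5' difference of 0.53 and 0.44 in clone 1, 0.29 and 0.27 in clone 5, 0.28 and 0.32 in V3, and 0.18 in V1. The GAPDH control probe sets gave 0.08 and 0.08 in clone 1, 0.07 and 0.06 in clone 5, 0.09 and 0.14 in V3, and 0.01 in V1. The ACTB difference, but not the GAPDH one, was highest where BAG3 and HSPH1 were lowest and HSPB8 and ZFAND2A highest. The part of RNA quality in these values was not tested.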

How the data were processed

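RNA of 7 Panc1 arrays (HG-U133 Plus 2.0) was analysed. The deposited values are log2 values that the authors made with RMA, per the submitters' processing notes (version not stated). Whether all arrays went through 1 RMA run was not stated, and log2 was inferred from the range of the values.

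Of 54675 probe sets, 62 controls were left out, and 54613 were tested. Probe sets with 1 symbol (41091) named genes; 1801 had several and 11721 none. For each of 19775 genes the probe set of highest mean stands for the gene. Arms were compared in limma 3.58.1 (R 4.3.3, statmod 1.5.0), with the clone as a random block (correlation 0.287), and V1 with V3 in a fit of 4 clones with 3 residual degrees of freedom, which compares clones, not conditions. All p-values are two-sided and Benjamini-Hochberg adjusted over all probe sets, with a threshold of 0.05. The fits were tested on simulated data with the same small clone spread for every probe set. The clone spread of HSPA6 is larger, and how the fits behave at such a spread was not tested. Figures used matplotlib 3.10.9.

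The members and lists were chosen with earlier results of these data known. Named genes were all members, up to 4 called genes of each list or else the 2 of largest difference, and the 6 genes most correlated with HSPA6. Nothing in the labels tells whether the 2 arrays of a clone are separate cultures, so p-values reflect only the spread among these arrays, which may be technical. Each arm rests on 2 clones, and the number of clones and arrays limits the precision. Detection calls were not used here.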

Additional observations from a re-analysis of the deposited data

Results flagged for a closer look

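Of the 24 member probe sets, 2 had 1 S100P-labelled array far from the other 3, relative to their spread, by Dixon's test of 4 values. For independent values chance alone gives this in about 5% of groups. The arrays here are 2 each of 2 clones, so that rate need not hold. HSP90AA1 at 211968_s_at read 11.59 on clone 1 array b and 11.67 to 11.68 on the other 3. HSPD1 at 243845_at read 4.26 on clone 5 array b and 4.74 on the other 3.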

How the results depend on the processing

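The count of probe sets called between the arms was 611. It was 1103 without the clone block, 8 with clone means averaged first, 301 with a mean log2 value of at least 6, 1355 without clone 5, 1675 without clone V3, and 159 to 1708 without 1 array, the highest without V1. With the array letter as a replicate block and V1 left out it was 917; the letters did not pair the arrays (correlations of deviations -0.08 to 0.06). The count between V1 and V3, 3195, was 4930 with a mean of at least 6, where fewer probe sets were tested, and 0 to 909 without 1 array, with 8584 to 11880 at an unadjusted p under 0.05 in limma. The causes were not tested.

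HSPA6 between the arms kept its direction in 16 settings, from 0.10 to 2.07, and passed in 1, without clone 1 (2.07). Without 1 array it was 0.91 to 1.49. HSPA6 between V1 and V3 passed in 1 of 9 settings, the mean of its probe sets (-0.43). Clone 5 minus clone 1 was 1.61 for the mean of both probe sets and 1.22 at the other one.

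Differences near 0 turned sign. Without 1 array the ranges between the arms were -0.01 to 0.12 for DNAJB1, -0.19 to 0.05 for HSF1 and -0.30 to 0.01 for HSPA4 at 211016_x_at, and between V1 and V3 -0.04 to 0.07 for HSPA4, -0.07 to 0.14 for DNAJB1, -0.20 to 0.02 for HSPH1 and -0.03 to 0.10 for HSPD1. With the letter block, and without V1, HSF1 was 0.05 and HSPA4 at 211016_x_at 0.01 between the arms. Between the arms DNAJB1 was -0.10 for the mean of its probe sets, -0.12 without clone 5, and -0.01 without clone 5 array a or V3 array a; BAG3 was 0.08 without clone 1, and HSPA4 -0.05 without clone 5. Between V1 and V3, quantile normalization gave -0.02 for HSPA4 and DNAJB1 and -0.03 for HSPD1; without V3 array a these were -0.04, -0.07 and -0.03. HSPH1 was 0.02 without V3 array b, and the mean of probe sets gave -0.01 for HSPA4 and 0.05 for HSPB8.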
